A study of Rattus norvegicus with 12 samples.

Results

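Microglia, the resident macrophages of the brain, were followed through 30 of their genes in the hippocampus of male rats exposed to chronic intermittent hypoxia (CIH) or kept in normoxia. CIH means repeated cycles of low oxygen and is used as a model of sleep apnoea. The 30 genes were taken by name as homeostatic, complement, lysosomal and antigen-presenting genes of microglia. All 30 were among the 26949 genes of the deposited table, and all 30 passed the filter on low counts that left 17935 genes. Each group had 3 RNA libraries and 3 small RNA libraries, CIH for 4 weeks and control (normoxia) for 4 weeks. The labels give neither strain nor age, nor do they tie each library to a rat of its own, so p-values measure the spread between these libraries.

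Microglia survey the tissue with moving processes, which purine and chemokine receptors steer, and depend on signals through the CSF1 receptor for survival. They make complement, which marks synapses and debris for uptake, and they digest what they take up in lysosomes. The receptor TREM2 with its adaptor TYROBP couples lipid sensing to that uptake, and the transcription factors PU.1 and IRF8 maintain the identity of the cell. In bulk RNA, fewer microglia and less RNA per microglial cell cannot be told apart.

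RNA libraries held 17170943 to 21941173 estimated counts and small RNA libraries 4681163 to 4914232 counts. Every one of the 30 genes was detected in every library, the lowest at 7 counts (Cd68 in CIH replicate 3). Markers of hippocampal pyramidal cells summed to 925 to 1368 CPM (counts scaled to TMM-adjusted library size) in CIH and 851 to 1400 CPM in control libraries, and those of dentate granule cells to 162 to 795 CPM in CIH and 330 to 917 CPM in control libraries. Of the genes listed for other leukocytes, the neutrophil gene S100a8 and the T cell gene Cd3g had at most 1 count in any library. Others had more. Mmp9 of the neutrophil list had 56 to 117 counts in CIH and 28 to 84 in control libraries. Summed monocyte markers, 8 of 10 in the table, ran from 150 to 204 CPM in CIH and 171 to 175 CPM in control libraries. Among them, Cd14 had 15 to 23 counts in CIH and 10 to 23 in control libraries, and Vcan 1102 to 1445 and 1068 to 1548. Which cells these came from was not tested. The T cell gene Lck had 17 to 22 counts in CIH and 14 to 27 in control libraries, and Cd3e had 263 counts in CIH replicate 3 and 279 in control replicate 1, against at most 2 in the rest. CIH replicate 1 stood apart in blood vessel and dentate markers.

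No microglia gene passed the test between CIH and control, and the 30 genes did not move one way. By edgeR's quasi-likelihood test with Benjamini-Hochberg adjustment over all genes tested, 0 of 30 passed, as did 0 of 17935 genes (0%), with adjusted p = 1.00 for each of the 30. At an unadjusted p under 0.05 there was 1 microglia gene, the ADP receptor gene P2ry13, against 1.78% of all genes. Split by direction, 1 of 30 was higher in CIH (0.914% of all genes) and 0 of 30 lower (0.864%). DESeq2 called 0 of the 30 and 9 genes in all (0.0502%), and limma on the authors' TPM called 0 of the 30. The log2 fold change, CIH over control throughout, was above 0 for 19 of the 30 genes, against 50.6% of all genes, and below 0 for 11. Its median over the 30 genes was 0.06, against 0.00 over all genes tested. That median was -0.01 without CIH replicate 2 and also without control replicate 1, when 13 and 14 of the 30 genes were above 0. It was 0.15 without CIH replicate 3 and 0.10 without control replicate 2, when 25 and 24 of the 30 were above 0.

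The size of change that these libraries leave possible differed from gene to gene. Standard errors (SE) of the log2 fold change ran from 0.11 for Vsir to 0.56 for Cd68, with a median of 0.20, as over all genes tested (0.20). For 28 of the 30 genes, the 95% confidence interval lay within 1 log2 unit of no change in both directions, against 74.5% of all genes. The exceptions were Cd74, whose interval passed 1 log2 unit on the lower side, and Cd68, whose interval passed it on both sides.

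**Figure D1:**
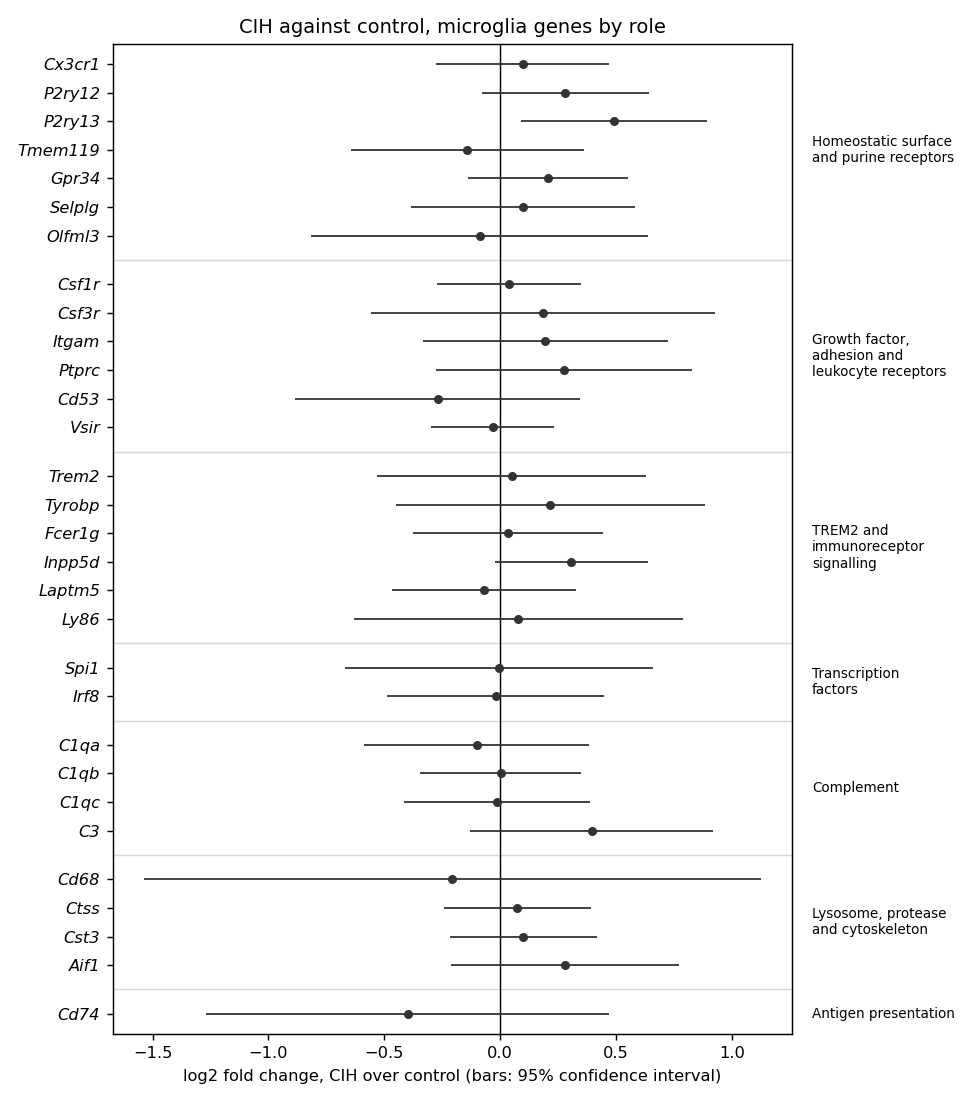
Log2 fold change of each microglia gene, CIH over control (horizontal axis), grouped by role from top to bottom; points are edgeR estimates and bars 95% confidence intervals from 3 libraries a group. The interval of P2ry13 (0.09 to 0.89) is the only one of the 30 that does not include 0, and the widest is that of Cd68 (-1.54 to 1.13).

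Compared per transcript length on the authors' TPM (a length-corrected share of transcripts), the 30 genes differed in level by orders of magnitude. Cst3, which encodes the protease inhibitor cystatin C and is made by many brain cells besides microglia, stood at 8205 ± 1943 TPM in CIH and 10180 ± 2033 TPM in control libraries (SD, n = 3 each). Next came the cathepsin S gene Ctss with a mean of 109 TPM over the 6 libraries and the selectin ligand gene Selplg with 97.2 TPM. The chains of C1q lay close together, at 49.6 TPM for C1qa, 46.3 TPM for C1qb and 43.8 TPM for C1qc, as did Csf1r at 48.0 TPM and Cx3cr1 at 39.6 TPM. At the low end were the G-CSF receptor gene Csf3r at 1.82 TPM, the lysosomal glycoprotein gene Cd68 at 1.83 TPM and the CD45 gene Ptprc at 1.86 TPM. Cst3 lay above every other gene in all libraries, and the lowest library of Selplg (81.2 TPM) lay above the highest of C1qa. C1qa, Csf1r, C1qb and C1qc overlapped in range: C1qa had 37.1 to 56.6 TPM in CIH and 45.2 to 60.9 TPM in control libraries, and C1qc 36.6 to 53.7 TPM in CIH and 41.0 to 46.5 TPM in control libraries.

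Promoters of these genes were read for the letters that PU.1 and IRF8 are known to bind, since the genes of both factors are among the 30. RefSeq (GRCr8 assembly) gave the 250 bases before the gene start for 21 of the 30 genes and not for P2ry12, Tmem119, Selplg, Tyrobp, Fcer1g, Ly86, Spi1, C1qc and Aif1. The PU box GAGGAA, on either strand, was in 12 of the 21 windows (57.1%), against 23.2% of 27457 promoter windows of the same length. The ETS-IRF composite element, which PU.1 can share with an IRF, was in 2 of the 21 (9.5%), Cd68 and Cd74, against 2.4% of all windows. A match to the composite element can share letters with a PU box. The windows below show 4 genes of different roles, each read 5′ to 3′ towards the gene start, with the matches in capitals.
Gpr34 (chrX:11785837-11786086, minus strand): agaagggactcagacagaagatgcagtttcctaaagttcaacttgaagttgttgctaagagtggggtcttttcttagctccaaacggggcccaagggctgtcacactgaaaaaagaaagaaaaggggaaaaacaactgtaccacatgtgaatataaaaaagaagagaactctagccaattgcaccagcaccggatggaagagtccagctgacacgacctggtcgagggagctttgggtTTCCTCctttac
Trem2 (chr9:20151780-20152029, minus strand): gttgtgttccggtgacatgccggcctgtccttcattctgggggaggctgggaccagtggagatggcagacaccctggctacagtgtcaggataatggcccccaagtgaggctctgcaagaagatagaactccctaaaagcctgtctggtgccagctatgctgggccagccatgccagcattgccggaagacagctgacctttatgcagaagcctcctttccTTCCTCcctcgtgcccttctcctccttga
C1qb (chr5:154407828-154408077, minus strand): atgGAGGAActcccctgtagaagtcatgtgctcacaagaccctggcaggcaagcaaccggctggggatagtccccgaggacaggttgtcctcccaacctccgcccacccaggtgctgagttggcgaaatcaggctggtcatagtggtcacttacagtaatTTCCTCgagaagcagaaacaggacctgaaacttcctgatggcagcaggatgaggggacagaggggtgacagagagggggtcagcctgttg
Cd74 (chr18:56526956-56527205, plus strand): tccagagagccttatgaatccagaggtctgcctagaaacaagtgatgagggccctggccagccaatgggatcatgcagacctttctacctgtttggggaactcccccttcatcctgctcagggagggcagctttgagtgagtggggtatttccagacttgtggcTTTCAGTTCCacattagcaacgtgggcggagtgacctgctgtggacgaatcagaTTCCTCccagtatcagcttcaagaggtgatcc
C1qb held a pair of PU boxes, 1 on each strand, and the window of Cd74 held both elements on the strand opposite to the one printed, so both are printed as their reverse complements. The media log2 fold change was 0.04 for the 12 genes with a PU box and 0.10 for the 9 without, and 8 of the 12 and 5 of the 9 were above 0. Letters in a window describe the sequence and do not show binding.

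The gene with the smallest p was among the homeostatic surface and purine receptor genes. P2ry13, a receptor for ADP, stood at 5.997, 5.26 and 5.71 CPM in CIH replicates 1, 2 and 3, against 4.42, 3.74 and 3.89 CPM in control replicates 1, 2 and 3. Every CIH library lay above every control library. The log2 fold change was 0.49 (SE 0.17; 95% confidence interval 0.09 to 0.89; edgeR unadjusted p = 0.0230, adjusted p = 1.00). It ran from 0.44 to 0.57 when any 1 library was left out. Summed endothelial markers, 12 of 12 measured, also did not overlap, at 421, 331 and 307 CPM in CIH and 290, 302 and 283 CPM in control libraries, and their part in the P2ry13 values was not tested. P2ry12, the neighbouring gene on chromosome 2 and a second ADP receptor, which draws microglial processes to injury, stood at 14.5, 12.5 and 12.3 CPM in CIH and 12.4, 9.68 and 10.2 CPM in control libraries. The groups overlapped, since control replicate 1 lay above CIH replicate 3, and the log2 fold change was 0.28 (SE 0.15). On the authors' TPM, limma gave 0.081 on the log2(TPM + 1) scale. Gpr34, a receptor for lysophosphatidylserine, stood at 7.40, 6.88 and 7.74 CPM in CIH and 5.96, 6.73 and 6.40 CPM in control libraries. Its groups did not overlap on CPM, although CIH replicate 2 and control replicate 2 were close. The log2 fold change was 0.20 (SE 0.15). On the authors' TPM the groups of Gpr34 overlapped: CIH replicate 2 (7 TPM) lay below control replicates 2 (7.02 TPM) and 3 (7.12 TPM).

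On CPM, 3 of the 30 genes had every CIH library above every control (P2ry13, Gpr34 and Inpp5d), against 3.05% of all genes. Of the 30, 0 had every CIH library below, against 2.65% (5.70% in either direction). The remaining genes of the homeostatic group overlapped between the groups. The fractalkine receptor gene Cx3cr1 stood at 20.5, 26.5 and 22.6 CPM in CIH and 18.2, 23.2 and 23.6 CPM in control libraries, a log2 fold change of 0.10 (SE 0.16). The marker gene Tmem119 stood at 13.6, 19.1 and 17.0 CPM in CIH and 13.6, 20.5 and 20.7 CPM in control libraries, a log2 fold change of -0.14 (SE 0.21). Both were low in replicate 1 of each group. Selplg was at 0.10 on the log2 fold change scale (SE 0.20) and the secreted matrix protein gene Olfml3 at -0.09 (SE 0.31). In all, 5 of the 7 genes of the group were above 0, with a median of 0.10.

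**Figure D2:**
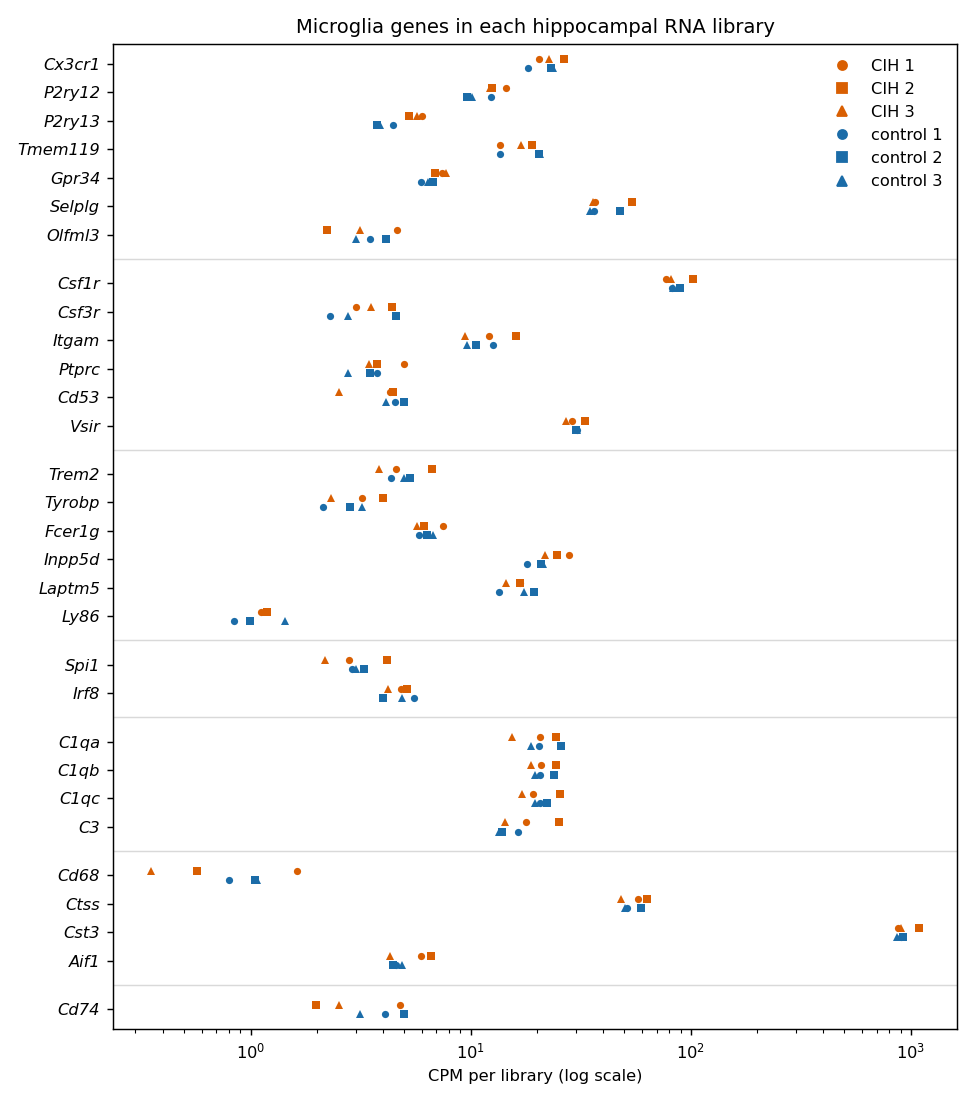
CPM of each microglia gene (horizontal axis, log scale) in the 3 CIH libraries (orange, upper points of each row) and the 3 control libraries (blue, lower points); marker shapes give the replicate number and lines separate the roles. The CIH points of P2ry13 (5.26 to 5.997 CPM) lie to the right of its control points (3.74 to 4.42 CPM), while most other genes overlap.

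Receptors for growth factors, adhesion and leukocyte identity showed no separation of the groups. Csf1r, the receptor on which microglial survival depends, stood at 77.6, 102 and 81.2 CPM in CIH and 82.0, 89.3 and 83.2 CPM in control libraries. CIH replicate 2 was the highest and CIH replicate 1 the lowest of the 6, and the log2 fold change was 0.04 (SE 0.13; 95% confidence interval -0.27 to 0.35). Its estimated counts were not whole in 2 of the 6 libraries. Itgam, which encodes the integrin CD11b, a part of a complement receptor, stood at 12.1, 16.1 and 9.46 CPM in CIH and 12.7, 10.6 and 9.59 CPM in control libraries, a log2 fold change of 0.20 (SE 0.22). Ptprc was at 0.28 on the log2 fold change scale (SE 0.23) and Csf3r at 0.19 (SE 0.31). The tetraspanin gene Cd53 stood at 4.32, 4.46 and 2.53 CPM in CIH and 4.52, 4.99 and 4.13 CPM in control libraries, so that CIH replicate 3 was below the other libraries, and the log2 fold change was -0.27 (SE 0.26), or -0.054 without that library. Vsir, which encodes the immune checkpoint VISTA, stood at 29.7 ± 3.06 CPM in CIH and 30.4 ± 0.165 CPM in control libraries (SD, n = 3 each), and its log2 fold change was -0.03 (SE 0.11).

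In the TREM2 and immunoreceptor group, the phosphatase gene Inpp5d had the smallest p. Inpp5d encodes SHIP1, which removes a phosphate from membrane lipids and restrains signalling downstream of TYROBP. It stood at 28.1, 24.7 and 21.7 CPM in CIH and 18.0, 20.9 and 21.3 CPM in control libraries. All CIH libraries lay above the controls, CIH replicate 3 only just, and the log2 fold change was 0.31 (SE 0.14; 95% confidence interval -0.02 to 0.64; edgeR unadjusted p = 0.0641). Without CIH replicate 1, the highest library, it was 0.21. Trem2 stood at 4.60, 6.69 and 3.84 CPM in CIH and 4.37, 5.29 and 4.96 CPM in control libraries. CIH replicates 2 and 3 were the highest and the lowest of the 6, and the log2 fold change was 0.05 (SE 0.24). Tyrobp, which encodes the adaptor of TREM2, stood at 3.19, 3.98 and 2.33 CPM in CIH and 2.14, 2.84 and 3.20 CPM in control libraries, a log2 fold change of 0.22 (SE 0.28), or 0.015 without CIH replicate 2. Fcer1g, the shared signalling chain of Fc receptors, had a log2 fold change of 0.03 (SE 0.17), the lysosomal membrane protein gene Laptm5 one of -0.07 (SE 0.17) and the MD-1 gene Ly86 one of 0.08 (SE 0.30).

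The transcription factor genes gave log2 fold changes close to 0. Spi1, which encodes PU.1, stood at 2.80, 4.17 and 2.17 CPM in CIH and 2.88, 3.29 and 3.01 CPM in control libraries, with SDs of 1.02 and 0.210 CPM. Its control libraries lay within the range of its CIH libraries. Its estimated counts were not whole in 5 of the 6 libraries, so part of its reads was shared with other features and its level is less certain. Irf8 stood at 4.73 ± 0.492 CPM in CIH and 4.79 ± 0.765 CPM in control libraries (SD, n = 3 each), and its log2 fold change was -0.02 (SE 0.20).

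Complement was read through C1q and C3. The genes of the C1q chains, which together start the classical pathway and lie side by side on chromosome 5, overlapped between the groups: C1qa had a log2 fold change of -0.10 (SE 0.20), C1qb one of 0.00 (SE 0.15) and C1qc one of -0.02 (SE 0.17). C1qb stood at 21.0, 24.5 and 18.8 CPM in CIH and 20.7, 23.9 and 19.6 CPM in control libraries. For each of the 3 genes, CIH replicate 3 was the lowest library, and CIH replicate 2 and control replicate 2 were the highest pair. C3, the protein on which all complement pathways meet and which reactive astrocytes also make, stood at 17.9, 25.2 and 14.3 CPM in CIH and 16.4, 13.9 and 13.4 CPM in control libraries. The groups overlapped, the log2 fold change was 0.39 (SE 0.22; 95% confidence interval -0.13 to 0.92), and it was 0.14 without CIH replicate 2.

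Genes of lysosome, protease and cytoskeleton overlapped between the groups. Ctss, which encodes the protease that trims the invariant chain, stood at 57.9, 63.1 and 48.4 CPM in CIH and 51.3, 59.5 and 50.1 CPM in control libraries, a log2 fold change of 0.07 (SE 0.13). Cd68 stood at 1.63, 0.569 and 0.354 CPM in CIH and 0.795, 1.05 and 1.07 CPM in control libraries, from 29, 12 and 7 counts in CIH and 16, 21 and 23 counts in control. Its CIH libraries lay on both sides of all controls, and the log2 fold change was -0.21 (SE 0.56), or -1.06 without CIH replicate 1. Aif1, which encodes the cytoskeletal marker IBA1, stood at 5.94, 6.59 and 4.30 CPM in CIH and 4.57, 4.44 and 4.87 CPM in control libraries, with CIH replicate 3 below every control. Cst3 depended on the unit. On counts it stood at 960 ± 115 CPM in CIH and 896 ± 29.5 CPM in control libraries (SD, n = 3 each), and its log2 fold change was 0.10 (SE 0.13). On the authors' TPM, limma gave -0.32 on the log2(TPM + 1) scale, the other direction, with neither past the threshold.

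Antigen presentation was read through Cd74, the invariant chain that guards the groove of MHC class II. Cd74 stood at 4.76, 1.99 and 2.53 CPM in CIH and 4.07, 4.99 and 3.15 CPM in control libraries. CIH replicates 2 and 3 were below every control and CIH replicate 1 was above all but control replicate 2. The log2 fold change was -0.40 (SE 0.37; 95% confidence interval -1.27 to 0.47), and it ran from -0.85 without CIH replicate 1 to -0.16 without CIH replicate 2.

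Libraries of the same group differed from each other, and many of the 30 genes moved with their library. A score for the 30 genes, the mean deviation of their log2 CPM from each gene's mean over the 6 libraries, was 0.10, 0.15 and -0.18 in CIH replicates 1, 2 and 3, and -0.09, 0.07 and -0.05 in control replicates 1, 2 and 3. The CIH libraries spanned 0.33 and the controls 0.16, inside the CIH range. CIH replicate 2 was the highest library for 14 of the 30 genes (46.7%), where it was the highest for 14.8% of all genes. CIH replicate 3 was the lowest library for 12 of the 30 (40%), against 13.9% of all genes. For 21 of the 30 genes (70%) the SD of log2 CPM was larger among CIH than among control libraries, against 57.7% of all genes. These shares describe 6 libraries and carry no test.

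**Figure D3:**
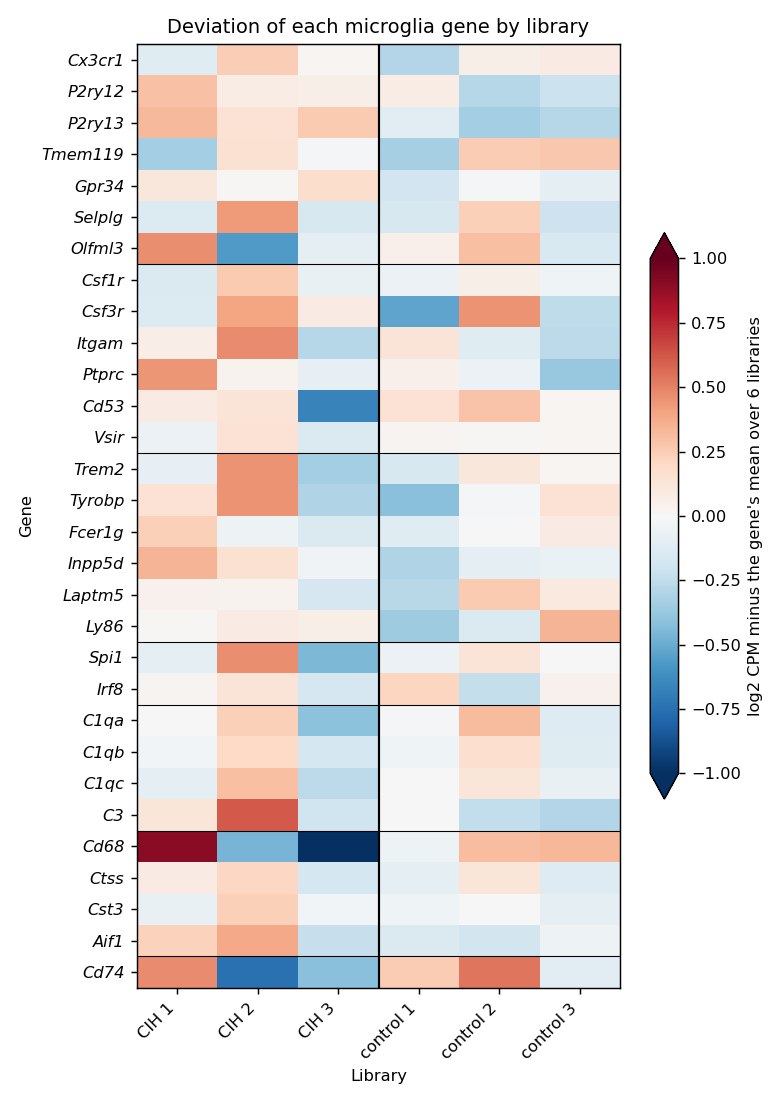
Log2 CPM of each microglia gene (rows, ordered by role) minus that gene's mean over the 6 libraries, in CIH replicates 1 to 3 and control replicates 1 to 3 (columns); red is above and blue below the mean. CIH replicate 2 is red in most rows except Olfml3, Fcer1g, Cd68 and Cd74, and CIH replicate 3 is blue in all rows except Cx3cr1, P2ry12, P2ry13, Gpr34, Csf3r and Ly86.

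Subgroups of the 30 genes did not follow the libraries alike. In CIH replicate 3 the complement genes scored -0.26 and the lysosomal, protease and cytoskeletal genes -0.37, while the homeostatic group scored 0.04. The -0.37 leaned on Cd68, which deviated by -1.03 there from 7 counts. The other genes of that group deviated by -0.23 (Aif1), -0.18 (Ctss) and -0.03 (Cst3). Homeostatic scores were 0.09, 0.07 and 0.04 in CIH replicates 1, 2 and 3, and -0.14, 0.03 and -0.08 in control replicates 1, 2 and 3. All CIH libraries were thus above all controls, by a narrow gap between CIH replicate 3 (0.035) and control replicate 2 (0.029). P2ry13 is part of this score and deviated by 0.26 and -0.34 in those libraries. Of the 7 genes, 2 (P2ry13 and Gpr34) had all CIH libraries above all controls singly. The score was not computed without P2ry13, so the gap is not a trait of the group. The complement score of CIH replicate 2, 0.34, was the highest of any library, while that of the single antigen presentation gene was the lowest there, at -0.74.

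Markers of other cells were read in the same libraries. Endothelial genes scored 0.46 in CIH replicate 1, -0.03 and -0.11 in CIH replicates 2 and 3, and -0.15 to -0.05 in control libraries, and 11 of 12 were highest in CIH replicate 1. Pericyte and smooth muscle genes scored 0.71 in CIH replicate 1, and perivascular and border macrophage genes 0.41 there, with 4 of 7 tested highest in it. The macrophage list did not rise as a whole. Its gene Siglec1 stood at 3.42 CPM in CIH replicate 1 and at most 1.09 CPM in any other library. Lyve1 was lowest in CIH replicate 1, and Mrc1 and Stab1 were highest in control replicate 1. Dentate granule cell genes scored -1.25 in CIH replicate 1, which was the lowest library for 7 of 7 tested, -0.09 and 0.57 in CIH replicates 2 and 3, and -0.30 to 0.91 in control libraries. CIH replicate 1 was the highest library for 7 of the 30 microglia genes (23.3%), close to its share of all genes (25.7%). Among these were P2ry13, P2ry12, Inpp5d, Ptprc and Cd68. Without it, P2ry13 had a log2 fold change of 0.44, P2ry12 one of 0.20 and Ptprc one of 0.10. Summed perivascular and border macrophage markers, 9 of 10 in the table, ran from 24.0 to 36.4 CPM in CIH and 27.7 to 35.1 CPM in control libraries; Pf4 and Ms4a7 among them had at most 1 and 2 counts per library. Their part in the microglial values was not tested.

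CIH replicate 2, highest for 14 of the 30 genes, scored 0.16 for astrocyte genes, the highest astrocyte score, and -1.26 for meningeal genes, the lowest. Summed astrocyte markers, 10 of 10, ran from 4000 to 4521 CPM in CIH and 3618 to 4476 CPM in control libraries. Summed neutrophil markers, 8 of 10 in the table, ran from 3.08 to 5.83 CPM in CIH and 1.69 to 4.08 CPM in control libraries, nearly all from Mmp9, which other cells also express. CIH replicate 3, lowest for 12 of the 30 genes, scored 0.63 for oligodendrocyte genes, with 9 of 10 highest there. Summed oligodendrocyte markers, 10 of 10, ran from 5066 to 7838 CPM in CIH and 3193 to 7719 CPM in control libraries. The part of these lists in the microglial values was likewise not tested.

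**Figure D4:**
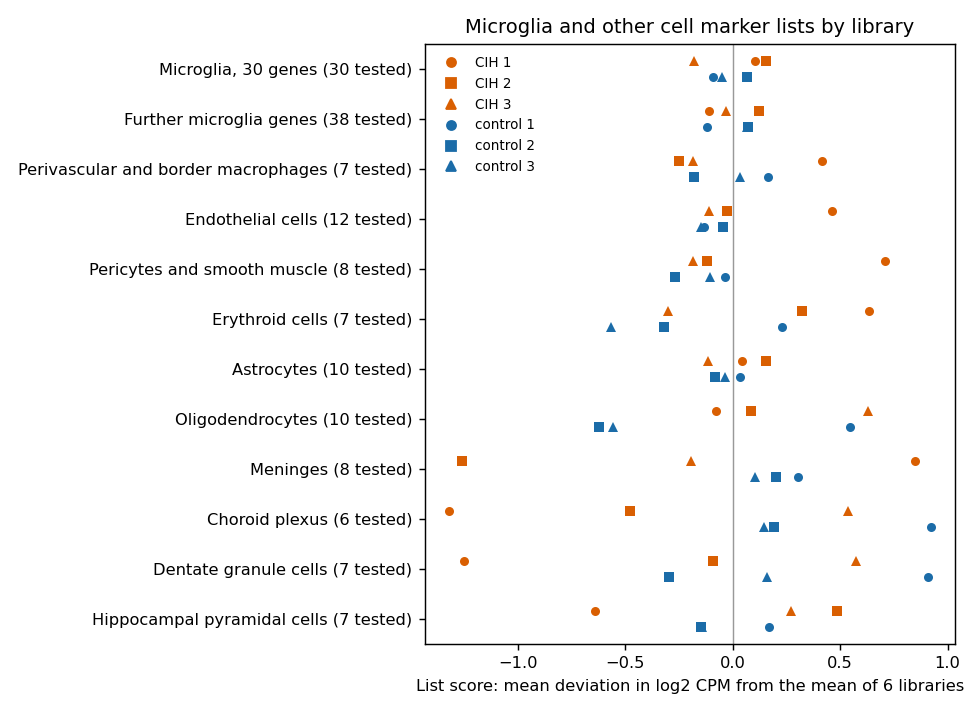
Score of each marker list (mean deviation in log2 CPM from the mean of the 6 libraries, horizontal axis) in CIH libraries (orange, upper points) and control libraries (blue, lower points), with the number of genes tested. The microglia scores (-0.18 to 0.15) span less than those of the vessel, oligodendrocyte, choroid plexus and dentate lists. CIH replicate 1 lies far from the other libraries in the endothelial and pericyte lists.

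Ligands and partners of the microglial receptors came next. Of 9 genes tested, 0 passed in either direction, 5 were above 0 and the median was 0.01. Csf1, a ligand of CSF1R, stood at 21.0, 31.4 and 36.5 CPM in CIH and 36.5, 34.1 and 38.4 CPM in control libraries, a log2 fold change of -0.29 (SE 0.20), with CIH replicate 1 below the rest. Without CIH replicate 1 it was -0.10. The second ligand of that receptor, the neuronal Il34, stood at 24.4 ± 9.20 CPM in CIH and 24.4 ± 7.06 CPM in control libraries (SD, n = 3 each). Cx3cl1, the fractalkine of neurons that CX3CR1 binds, had a log2 fold change of 0.04 (SE 0.15). Lgals9, the gene of the lectin galectin-9, stood at 15.0, 12.4 and 10.3 CPM in CIH and 9.84, 8.68 and 9.55 CPM in control libraries, without overlap. Its log2 fold change was 0.42 (SE 0.17, edgeR unadjusted p = 0.0444, adjusted p = 1.00). On the authors' TPM its groups overlapped, with CIH replicate 3 at 15.73 TPM and control replicate 3 at 16.23 TPM.

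Further microglia genes were evenly divided: 0 of 38 tested passed, 19 were above 0 and 19 below. Fcgr2b, the inhibitory Fc receptor gene, stood at 1.29, 1.38 and 1.16 CPM in CIH and 1.79, 1.75 and 3.20 CPM in control libraries, a log2 fold change of -0.81 (SE 0.32), or -0.47 without control replicate 3. Mertk, a receptor for dying cells that astrocytes also carry, stood at 46.3, 47.7 and 42.9 CPM in CIH and 41.0, 39.3 and 39.2 CPM in control libraries, a log2 fold change of 0.20 (SE 0.09). In both genes the groups did not overlap, in opposite directions. Among 12 partners of TREM2 signalling, 0 passed and 7 were above 0; Cd33, an inhibitory sialic acid receptor, was at 0.36 on the log2 fold change scale (SE 0.26) and Vav1, an exchange factor, at -0.32 (SE 0.24).

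Of the complement cascade and its regulators, 0 of 19 tested passed and 11 were above 0, with a median of 0.02. Cd59, which blocks the membrane attack complex, stood at 56.7, 61.5 and 57.2 CPM in CIH and 47.6, 48.9 and 49.6 CPM in control libraries, a log2 fold change of 0.26 (SE 0.09; edgeR unadjusted p = 0.0218, adjusted p = 1.00). Its groups did not overlap on counts, but on the authors' TPM limma gave the other direction, -0.10. C4a, which acts between C1q and C3, had a log2 fold change of 0.48 (SE 0.25), with overlap. Reads of C4a and its near-identical copy C4b may be split between them, so each is uncertain singly. The receptor genes C3ar1 and C5ar1 had 24 to 39 and 5 to 19 counts in CIH and 30 to 44 and 9 to 27 counts in control libraries.

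Counts of MHC class II genes were low for some and moderate for others. Of 10 genes in the table, 5 passed the filter on low counts, 0 passed the test and 2 were above 0. The class II gene RT1-Da had 9 to 15 counts in CIH and 8 to 21 counts in control libraries, and the class II transactivator gene Ciita 4 to 8 and 5 to 7 counts. RT1-Da passed the filter and had a log2 fold change of -0.20 (SE 0.48; 95% confidence interval -1.33 to 0.94). RT1-DMa, which helps load peptides, had 74, 519 and 334 counts in CIH and 282, 349 and 356 counts in control libraries, with CIH replicate 1 the lowest and CIH replicate 2 the highest. RT1-Db1 was at -0.89 on the log2 fold change scale (SE 0.56) and RT1-DMb, the partner chain of RT1-DMa, at 0.41 (SE 0.34). Without control replicate 3, RT1-Db1 was at -0.33, and without CIH replicate 2, RT1-DMb was at 0.12.

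Among genes that mouse microglia switch on around plaques and in degeneration, counts ranged widely. Apoe, which astrocytes also make, had 34274 to 57807 counts in CIH and 43308 to 50674 in control libraries, and Axl 697 to 946 and 819 to 851. Itgax had 2 to 5 counts in CIH and 2 to 4 in control libraries, Clec7a 0 to 4 and 1 to 2, and Cst7 0 to 1 and 1. The chemokine genes Ccl3 and Ccl4 had at most 2 and 3 counts in any library. Of the 11 genes of that list tested, 0 passed and 5 were above 0; Cd63, a tetraspanin of lysosomes in many cells, had a log2 fold change of -0.19 (SE 0.16). Among 15 lysosomal genes, 0 passed and 11 were above 0, with a median of 0.03; Grn, the progranulin gene, had a log2 fold change of -0.17 (SE 0.14), with overlap. Of 13 partner transcription factors tested, 0 passed and 9 were below 0. Maf was at -0.22 on the log2 fold change scale (SE 0.10) and Runx1 at 0.40 (SE 0.20), each without overlap on CPM. On the authors' TPM, Maf overlapped, with CIH replicate 2 at 38.8 TPM and control replicate 3 at 36.05 TPM.

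The small RNA libraries were read for miRNAs known from blood-derived and microglial cells, though other cells of the tissue may also hold them. miR-142 is made in cells of the blood lineage and miR-223 in myeloid cells, while miR-146a, miR-146b and miR-155 respond to inflammatory signalling. Mature sequences from RefSeq (GRCr8 assembly) are shown 5′ to 3′ with the seed, bases 2 to 8, in capitals.
miR-142-3p (chr10:73055155-73055177, plus strand): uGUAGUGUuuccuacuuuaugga
miR-142-5p (chr10:73055119-73055139, plus strand): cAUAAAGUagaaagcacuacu
miR-223-3p (chrX:65151450-65151470, plus strand): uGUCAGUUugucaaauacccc
miR-146a-5p (chr10:28350053-28350074, minus strand): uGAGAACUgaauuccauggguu
miR-146b-5p (chr1:255144874-255144897, plus strand): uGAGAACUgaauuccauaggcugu
miR-155-5p (chr11:37261117-37261139, plus strand): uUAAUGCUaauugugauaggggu
miR-146a-5p and miR-146b-5p share a seed, and both arms of the miR-142 hairpin have seeds of their own. The hairpins of the 6 miRNAs shown overlapped no other hairpin in the RefSeq table.

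No miRNA of this set passed the test. By edgeR's quasi-likelihood test with Benjamini-Hochberg adjustment over 715 miRNAs, 0 passed in all (0%), 17 had an unadjusted p under 0.05 (2.38%), none of them in this set, and DESeq2 called 2 (0.282%), also none of this set. The groups overlapped for all 13 miRNAs of the set, and did not overlap for 7.69% of the miRNAs tested. miR-142-3p stood at 103, 227 and 117 CPM in CIH and 127, 158 and 145 CPM in control libraries, a log2 fold change of 0.06 (SE 0.38). CIH replicate 2 was the highest of the 6, and without it the value was -0.37. miR-142-5p stood at 36.1, 49.2 and 60.9 CPM in CIH and 37.8, 29.1 and 67.8 CPM in control libraries, a log2 fold change of 0.12 (SE 0.40). The order of the libraries differed between the arms. miR-223-3p stood at 22.0, 17.9 and 13.9 CPM in CIH and 26.3, 15.5 and 13.8 CPM in control libraries, and its log2 fold change was -0.05 (SE 0.35).

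Among the miRNAs with a shared seed, miR-146a-5p was at 0.13 on the log2 fold change scale (SE 0.28) and miR-146b-5p at -0.23 (SE 0.35), the second at -0.037 without CIH replicate 1. miR-155-5p stood at 31.7, 17.2 and 21.6 CPM in CIH and 31.0, 24.8 and 13.8 CPM in control libraries, a log2 fold change of 0.02 (SE 0.40). miR-150-5p, known from lymphocytes, stood at 10062 ± 889 CPM in CIH and 8856 ± 2006 CPM in control libraries (SD, n = 3 each). Its log2 fold change was 0.18 (SE 0.19), and which cells it came from was not tested. miR-342-3p was at -0.22 on the log2 fold change scale (SE 0.38). miR-21-5p, which many cell types make, had a log2 fold change of 0.02 (SE 0.49). miR-223-5p had 1 to 4 counts in CIH and 1 to 2 counts in control libraries and was not tested. Of the brain miRNAs, miR-124-3p, known from neurons and from quiescent microglia in mice, stood at 18092, 8858 and 13740 CPM in CIH and 8047, 5122 and 10134 CPM in control libraries. The groups overlapped, and the log2 fold change was 0.80 (SE 0.34; edgeR unadjusted p = 0.0526, adjusted p = 0.969). miR-9a-5p was at -0.07 on the log2 fold change scale (SE 0.12) and miR-22-3p at 0.06 (SE 0.09). The labels do not say that RNA and small RNA libraries of 1 number came from the same rat.

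**Figure D5:**
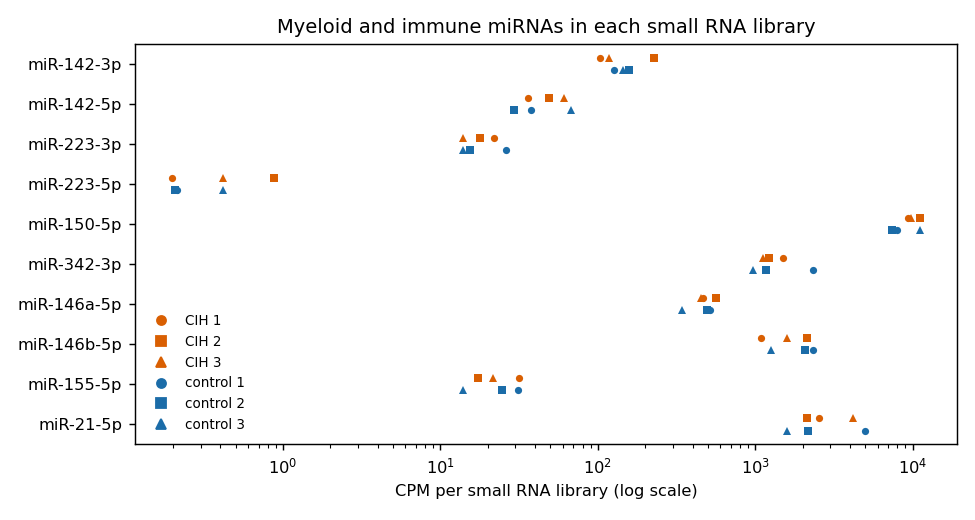
CPM of 10 myeloid and immune miRNAs (horizontal axis, log scale) in the 3 CIH small RNA libraries (orange, upper points) and the 3 control small RNA libraries (blue, lower points); marker shapes give the replicate number. The groups overlap in every row, and miR-142-3p reaches 227 CPM in CIH replicate 2.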

How the data were processed

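TRIzol was used for total RNA and BGI sequencers for both kinds of library, per the labels' protocols. Rnor_6.0 is the build in the submitters' processing notes, which also list HISAT2 2.2.0, RSEM 1.2.12 and Bowtie2 2.2.5 without saying which step used each. Neither the strand setting, the gene annotation nor the miRNA counter is stated there. The RNA table holds, per the file headers, the authors' estimated counts, TPM and FPKM. The deposited estimated counts included 16% that were not whole, and all were rounded. The TPM made by the authors served to compare levels between genes, to set CIH and control libraries side by side for some genes, and in limma. The authors' FPKM was not used in any result. The small RNA table holds, per the file headers, deposited counts and a normalized signal by the authors, equal to the count divided by 1 number per library (17.3 to 18.4 counts per unit), used in limma only.

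CIH was set against control in both tables with edgeR's quasi-likelihood F test (version 4.0.16; TMM, filterByExpr with a minimum count of 10) in R 4.3.3, with Benjamini-Hochberg adjustment over 17935 genes or 715 miRNAs and a threshold of 0.05. CPM values use TMM-adjusted totals. SE is the absolute log2 fold change over the square root of F. Scores are means of log2 CPM with a prior count of 2. The fits were tested on simulated data. The alternatives were RLE, no filter (at least 1 count in any library), DESeq2 1.42.0, limma 3.58.1 on log2 of the authors' values (pseudocounts 1 and 0.1), each library left out in turn, and replicate numbers as a block. The 30 genes and all lists were chosen with earlier results of these data known. All 30 genes, the ligands Csf1, Il34 and Cx3cl1, the listed miRNAs and, from each of 8 pathway lists, the 2 tested genes with the smallest p were named; other genes named, such as those at very few counts, were chosen after their values were seen. Not every gene that the rule selects is reported here. All 30 gene identifiers matched the RefSeq gene table (GRCr8), used for names and neighbours. Counting error alone does not cover the spread between libraries. Figures used matplotlib 3.10.9.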

Additional observations from a re-analysis of the deposited data

How the results depend on the processing

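The count of microglia genes passing the test was 0 under every alternative run. Over all genes it was 9 by DESeq2 and 1 by limma with either pseudocount, against 0 in the main test, and 0 to 1 with any 1 library left out. For miRNAs it was 2 without the low-count filter, 2 by DESeq2, 2 by limma with either pseudocount and 0 to 1 with 1 library left out. The microglia median ran from -0.01 to 0.15 with 1 library left out. Correlations between CIH and control libraries of the same number ran from -0.222 to -0.0457 for RNA and -0.149 to 0.122 for small RNA. Libraries of different numbers were not compared, so these values cannot settle whether the numbers pair the samples. With the replicate number as a block, 0 genes and 0 miRNAs passed and the microglia median was 0.05.

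Of the 30 genes, 19 turned direction under at least 1 alternative, as did 3 of 17 named pathway genes and 9 of 12 miRNAs, mostly when 1 library was left out. With 1 library left out, the log2 fold change ran from -0.26 to 0.054 for C1qa, -0.11 to 0.087 for C1qb, -0.20 to 0.10 for C1qc, -1.06 to 0.16 for Cd68 and -0.10 to 0.11 for Csf1r. It ran from -0.0055 to 0.53 for Csf3r, -0.0050 to 0.15 for Cst3, -0.014 to 0.17 for Ctss, -0.012 to 0.18 for Cx3cr1 and -0.093 to 0.11 for Fcer1g. It ran from -0.14 to 0.10 for Irf8, -0.026 to 0.36 for Itgam, -0.21 to 0.046 for Laptm5, -0.074 to 0.33 for Ly86 and -0.41 to 0.13 for Olfml3. It ran from -0.12 to 0.25 for Selplg, -0.30 to 0.19 for Spi1, -0.21 to 0.21 for Trem2, -0.12 to 0.0245 for Vsir, -0.064 to 0.18 for Cx3cl1 and -0.35 to 0.17 for Il34.

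Among genes that kept their direction, it ran from -0.31 to -0.022 for Tmem119, -0.41 to -0.054 for Cd53, 0.097 to 0.38 for Ptprc, 0.015 to 0.39 for Tyrobp, 0.14 to 0.43 for Aif1, 0.27 to 0.55 for Lgals9, 0.21 to 0.55 for Cd33, 0.26 to 0.68 for C4a, -1.22 to -0.33 for RT1-Db1, 0.12 to 0.63 for RT1-DMb, -0.27 to -0.091 for Grn and -0.36 to -0.094 for Cd63.

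For miRNAs it ran from -0.37 to 0.25 for miR-142-3p, -0.12 to 0.47 for miR-142-5p, -0.094 to 0.26 for miR-146a-5p and -0.29 to 0.31 for miR-155-5p. It ran from -0.34 to 0.68 for miR-21-5p, -0.28 to 0.31 for miR-223-3p, -0.52 to 0.28 for miR-342-3p and -0.21 to 0.023 for miR-9a-5p. Without a change of direction, it ran from -0.52 to -0.037 for miR-146b-5p and 0.068 to 0.33 for miR-150-5p. By limma with a pseudocount of 1 and of 0.1, Cst3 was at -0.3168 and -0.3169, Cd59 at -0.1007 and -0.1012, Vsir at 0.0513 and 0.0537, Il34 at 0.0166 and 0.0168, C1qb at -0.0070 and -0.0072 and miR-142-3p at -0.0542 and -0.0569. C1qb was at -0.0021 with RLE, -0.0017 by DESeq2 and -0.0016 with the replicate block. miR-142-3p was at -0.0272 with the block. Without the low-count filter, miR-142-3p was at -0.0111, miR-155-5p at -0.0526, miR-21-5p at -0.0558 and miR-22-3p at -0.0037. The cause of these turns was not tested.

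Cd68, RT1-Da and RT1-Db1 had fewer than 30 counts in every library, and Ly86 had 17 counts in control replicate 1 to 31 in control replicate 3. Depth limits what can be said of these and of other genes at few counts.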

Other observations

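The T cell receptor chain gene Cd3e, chosen after its values were seen, had 0, 2 and 263 counts in CIH replicates 1, 2 and 3, and 279, 0 and 1 counts in control replicates 1, 2 and 3. Cd3g had at most 1 count in any of these libraries.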
